A study of Mus musculus with 2 samples.

Results

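A group of 119 barcodes in sorted mouse brain natural killer (NK) cells is described here, 70 in the wildtype library and 49 in the 3XTg-AD library, out of 3347 barcodes kept in all and 3404 deposited. They were chosen by their own transcripts. A barcode was taken if at least 300 genes were detected, at most 10% of its unique molecular identifiers (UMIs, each standing for 1 captured transcript) were mitochondrial, and the 5 gate genes Gzmc, Itga1, Inpp4b, Cxcr6 and Tnfsf10 together had at least 3 UMIs. Barcodes with a UMI of a Cd3 chain (Cd3d, Cd3e, Cd3g), of a C1q chain (C1qa, C1qb, C1qc) or of Tmem176a or Tmem176b were left out. These members are called gated barcodes below. They were set against NK barcodes, which had a UMI of Ncr1 or Klrb1c and at most 2 gate UMIs (1516 wildtype and 1568 3XTg-AD), and against the 38 barcodes that met the same gate and had Tmem176 UMIs (20 and 18).

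The wildtype library came from untreated C57BL/6 females of 8 months, and the 3XTg-AD library from untreated females of the same age that carry the 3XTg-AD transgenes, a model of Alzheimer's disease. Both were sorted as NK cells by flow cytometry, and their transcripts were read from the 5′ end on the 10x Genomics Chromium platform. How many mice went into a library, which antibodies were used for the sort and on which background the 3XTg-AD strain was kept were not given in the labels. With 1 library per group, no test was possible: ratios compare these libraries and not the genotypes, and genotype cannot be told apart from the preparation of a library. All 95% intervals are exact, cover counting error only, and are too narrow where a few barcodes hold most of a gene's UMIs.

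NK cells and type 1 innate lymphoid cells (ILC1s) are closely related lymphocytes without rearranged antigen receptors, and both make interferon gamma. NK cells circulate and kill with perforin and granzymes, while ILC1s are mostly tissue-resident and hold the collagen-binding integrin CD49a (Itga1), the chemokine receptor Cxcr6 and the death ligand TRAIL (Tnfsf10). NK cells exposed to transforming growth factor beta can take up several of these molecules, so the surface features of both kinds overlap. Granzyme C, encoded by Gzmc, is a serine protease of the granzyme family whose gene neighbours Gzmb on chromosome 14.

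The gated barcodes were 4.21% of the kept barcodes in the wildtype library (exact Clopper-Pearson interval 3.30% to 5.29%) and 2.91% in the 3XTg-AD library (2.16% to 3.83%), and these intervals overlap. Their median depth was 5355 and 5773 UMIs, against 2885 and 2813 in NK barcodes. When each barcode was thinned to 1400 UMIs before the rule was applied, the shares were 1.77% and 0.879%. Scrublet called 4 gated barcodes of each library as doublets, which is 5.71% and 8.16% of them, against 0.594% and 1.15% of NK barcodes. What depth and doublets contribute to the results was not tested further than by the values given beside them. No gated barcode sequence occurred in both libraries.

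The gate genes chose the barcodes, so their levels are a description. Inpp4b, a lipid phosphatase of the phosphoinositide pathway, was the gate gene found most widely, with UMIs in 63 of 70 wildtype gated barcodes (90%) and 45 of 49 3XTg-AD ones (91.8%). Itga1 had UMIs in 60% and 59.2% of them. Cxcr6 was found in 42.9% and 34.7%, and Tnfsf10 in 42.9% and 59.2%. Most barcodes showed 2 or 3 of the 5 genes, and 7 wildtype and 4 3XTg-AD barcodes showed all 5.

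Gzmc was spread unevenly. It had UMIs in 38 of 70 wildtype gated barcodes (54.3%, interval 41.9% to 66.3%) and in 17 of 49 3XTg-AD ones (34.7%, 21.7% to 49.6%), so 32 barcodes of each library had none. The 5 barcodes with most Gzmc held 59.0% of its 632 UMIs in the wildtype library and 80.0% of its 85 UMIs in the 3XTg-AD library, with up to 154 and 25 UMIs in 1 barcode. In NK barcodes Gzmc reached 16 and 10 UMIs in all. In barcodes with at least 3 C1q UMIs, which hold microglial transcripts, 0 of 8 and 0 of 30 had a Gzmc UMI (upper bounds 36.9% and 11.6%). A Gzmc-based name therefore describes 54.3% and 34.7% of these barcodes, and 24 wildtype and 6 3XTg-AD barcodes would have passed on Gzmc alone.

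**Figure D1:**
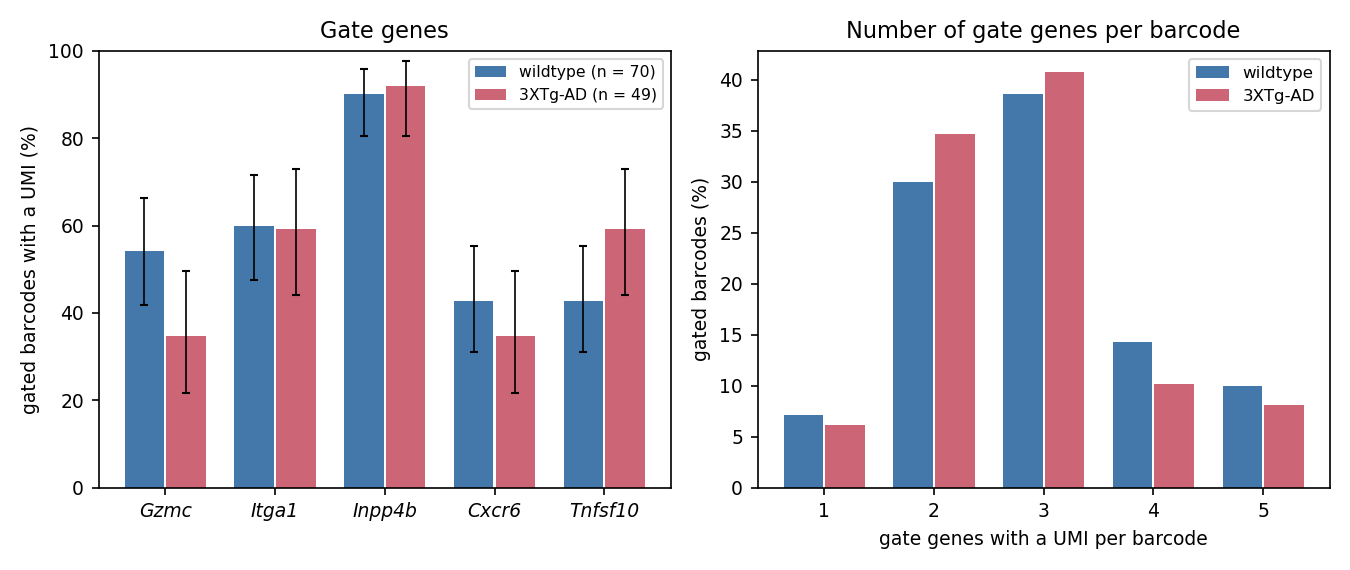
Left, percent of gated barcodes with at least 1 UMI of each gate gene in the wildtype (n = 70 barcodes) and 3XTg-AD (n = 49) libraries, with exact 95% binomial intervals as bars. Right, percent of gated barcodes by how many of the 5 gate genes had a UMI; Inpp4b is near 90% in both libraries, Gzmc is at 54.3% and 34.7%, and most barcodes show 2 or 3 gate genes.

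The label ILC1-like was not decided by genes beyond the gate. Of the ILC1 list, 5 of 7 measured genes were higher than in NK barcodes, as described further on, against 1.73% of all tested genes. Most genes of that list were not measured, and it was chosen with earlier results known, so the count does not bear out the label. Several defining ILC1 markers were near 0. Il7r, the interleukin 7 receptor chain, had 5 and 1 UMIs in the wildtype and 3XTg-AD gated barcodes. Cd200r1 had 3 and 2 UMIs, Rora 8 and 2, and Zfp683, which encodes the residency factor Hobit, 12 and 1, the former 7.04-fold (3.14 to 15.1) over wildtype NK barcodes. Eomes, a T-box factor that defines NK cells in many tissues, stood at 232 CPM (its UMIs summed over a group of barcodes, scaled to an equal total for every group) in wildtype gated barcodes and 250 in 3XTg-AD ones, against 215 and 233 in NK barcodes. The ratios were 1.08 (0.865 to 1.33) and 1.07 (0.836 to 1.36), so the Eomes level did not differ from that of NK barcodes beyond counting error in either library. The barcodes are therefore called by their gate and not by a cell type.

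Markers of other cells were checked in the same barcodes. The NK receptor genes Ncr1 and Klrb1c had no UMI in 12 and 6 of the 70 wildtype gated barcodes, 4 of which lacked both, and in 0 and 1 of the 49 3XTg-AD ones. Of 13 T cell markers, Cd4, Cd8a, Cd8b1, Cd5 and Cd6 were at 0 UMIs in both libraries beside the 3 Cd3 chains left out by the rule. The summed T cell list was nevertheless higher in gated than in NK barcodes (939 and 1485 CPM against 544 and 573), through Thy1. Trbc1 (ratios 1.10 and 1.21) and Trbc2 (0.922 and 1.32) had intervals that include 1 in both libraries, and Trac had 8 and 0 UMIs. Trdc, a further T cell receptor constant gene, had 33 and 34 UMIs. Its interval included 1 in the wildtype library (0.679 to 1.43). In the 3XTg-AD library its ratio was 1.78 (1.21 to 2.54), with UMIs in 22 of 49 barcodes. Of 12 microglial markers, C1q chains aside, Csf1r, P2ry12, Apoe and Aif1 were at 0 UMIs in both libraries. The summed list stood at 247 and 297 CPM against 469 and 1094 CPM in NK barcodes. It includes the C1q chains, which the rule set to 0 in gated but not in NK barcodes, so the lower sum supports no direction. UMIs of the list were in 67.1% and 89.8% of gated against 54.0% and 58.2% of NK barcodes. The ILC2 genes Il1rl1, Il13, Il5 and Areg were at 0 UMIs, while Gata3 of the same list had 13 and 19 UMIs. The summed ILC2 list stood at 84.0 and 97.9 CPM against 469 and 416 CPM in NK barcodes, where Klrg1 alone made up 401 and 353 CPM. The summed ILC3 list had 8 and 1 UMIs, all of Kit. Tmem176b, another member of that list, was set to 0 by the rule, so the low sum supports no direction. Of 6 B cell markers, Cd79a, Ms4a1 and Igkc were at 0 UMIs in both libraries, and all 61 UMIs of the list in the 3XTg-AD barcodes were of Ighm. The summed B cell list stood at 143 and 206 CPM against 50.8 and 51.7 CPM in NK barcodes, with UMIs in 47.1% and 75.5% of gated against 12.6% and 12.4% of NK barcodes, and its part in the results was not tested. The neutrophil list had 0 and 2 UMIs, the erythroid list 6 and 0, and the list of endothelial, choroid and glial genes stood at 84.0 and 91.1 CPM against 96.7 and 70.7 CPM in NK barcodes.

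Against NK barcodes, 48 of 2773 genes tested (mean of the 4 CPM values at least 50, rule genes left out) were at least 2-fold higher in both libraries, which is 1.73% of them, and 121 genes were at least 2-fold lower in both, which is 4.36%. With median-of-ratios scaling in place of totals the same comparison gave 74 higher and 85 lower genes. All tested genes together had a median log2 ratio of −0.16 in the wildtype and −0.21 in the 3XTg-AD library, so ratios near those values are the middle of the table. Against the 300 and 266 NK barcodes with at least 4000 UMIs, which are closer in depth, the counts were 41 and 89, of which 31 and 80 were among the 48 and 121. Because the groups were cut on transcripts of the same cells, these ratios describe the groups, and the interval of a ratio is not a test of the gate.

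**Figure D2:**
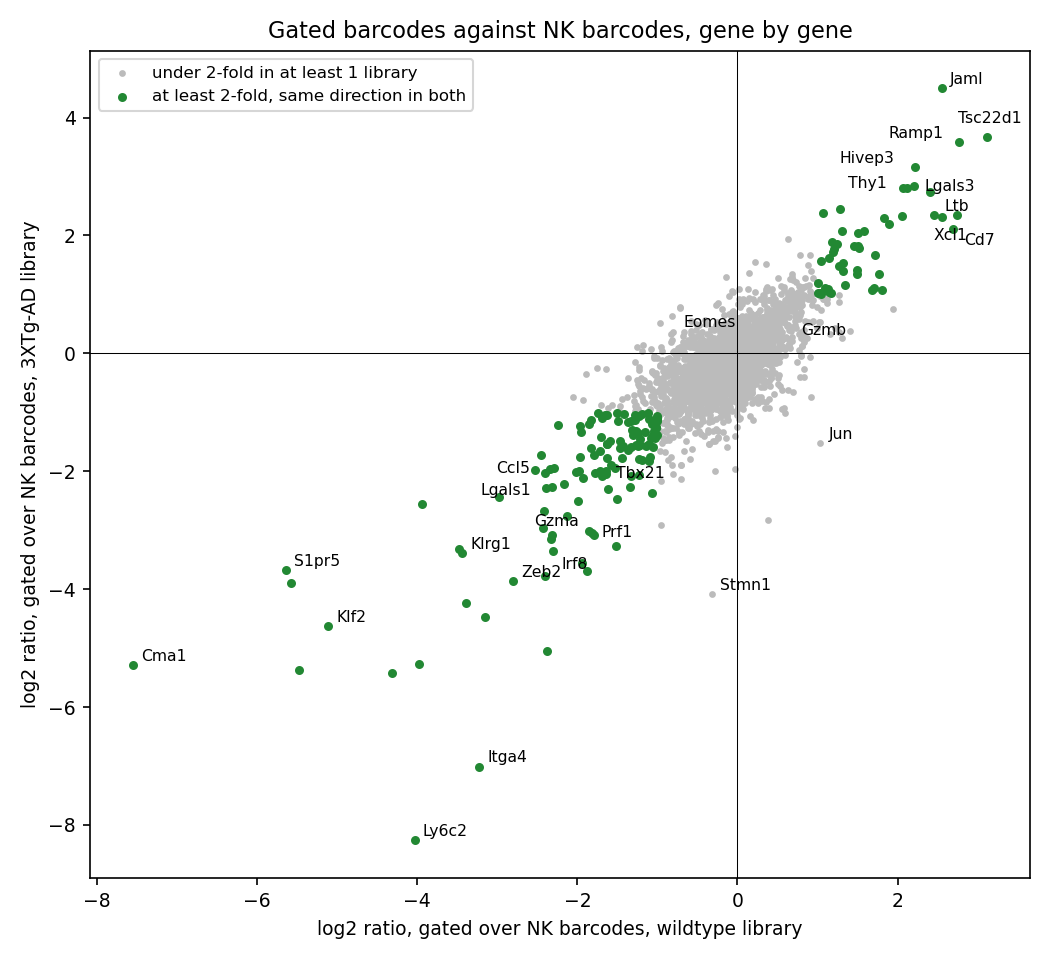
Each point is 1 of 2773 genes, with the log2 ratio of CPM in gated over NK barcodes in the wildtype library on the x axis and in the 3XTg-AD library on the y axis; 7 genes with 0 UMIs in a group are not drawn. Green points are at least 2-fold in the same direction in both libraries; Tsc22d1, Ramp1, Jaml and Cd7 lie at the upper right, Klf2, Cma1, Ly6c2 and S1pr5 at the lower left, and Eomes near 0 in both.

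Secreted and surface products differed in both directions. Xcl1, a chemokine that attracts cross-presenting dendritic cells, stood at 1273 CPM in wildtype and 1205 CPM in 3XTg-AD gated barcodes against 216 and 242 CPM in NK barcodes, a ratio of 5.89 (5.29 to 6.55) and 4.98 (4.41 to 5.61). It had UMIs in 92.9% and 95.9% of gated barcodes, in 21% of NK barcodes in both libraries, and in 1 of 8 and 4 of 30 barcodes with C1q UMIs, whose median depth was 3206 and 3583 UMIs. Xcl1 was thus found in nearly every gated barcode of both libraries, with 10th to 90th percentiles of 1.86 to 27.0 and 2.06 to 25.9 UMIs per 10000. Ltb, which encodes lymphotoxin beta, stood at 623 and 469 CPM against 114 and 92.6 CPM (ratios 5.48 and 5.07). Chemokines of circulating NK cells went the other way: Ccl5 stood at 5467 and 7768 CPM in gated barcodes against 27624 and 30323 CPM in NK barcodes (ratios 0.198 and 0.256). Ccl4 and Ccl3 had ratios of 0.185 and 0.129, and of 0.0901 and 0.101. Of the 22 cytokine and chemokine genes listed, 7 were measured, 2 of them higher (Xcl1 and Ltb) and 3 lower. Ccl3 is among the lower ones and passed the CPM filter only through NK barcodes, so the count of lower genes supports no direction. Ifng had 8 and 0 UMIs in gated barcodes, and with a floor of 3 UMIs it was at least 3.51-fold lower than in NK barcodes in the 3XTg-AD library.

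Among receptors, Cd7, an immunoglobulin-family receptor of T and NK cells, stood at 3719 and 2788 CPM against 574 and 644 CPM, and ratios were 6.48 (6.08 to 6.91) and 4.33 (4.01 to 4.68). Tigit, an inhibitory receptor for nectin-family ligands, had ratios of 4.34 and 7.02 (0.985 in the 14 3XTg-AD barcodes left after thinning), and Cd226, the activating receptor for some of the same ligands, of 2.37 and 3.63. Cd160 had ratios of 2.26 and 3.72. These members and Cd96 make up the 5 higher of 23 measured genes in the list of NK receptors outside the Ly49 family, in which 3 genes were lower and the median log2 ratios were −0.12 and −0.20. Of all tested genes, 1.73% were higher and 4.36% lower. Cd226 and Cd96 passed the CPM filter only through gated barcodes, and Ly9, among the lower ones, only through NK barcodes. These list counts therefore support no direction. Thy1, a surface glycoprotein of T cells and many ILCs, stood at 618 and 1168 CPM against 148 and 167 CPM (ratios 4.17 and 6.99). Jaml, a junctional adhesion receptor, had 28 and 41 UMIs and ratios of 5.86 (3.59 to 9.39) and 22.6 (13.8 to 37.4). At 11.8 and 6.13 CPM in NK barcodes, Jaml passed the CPM filter only through gated barcodes, so its higher level is a description. Among chemokine receptors, Ccr2, the receptor for Ccl2, had ratios of 2.43 and 5.44. The list of cytokine and chemokine receptors held 13 measured genes, of which 2 were higher (Ccr2 and Tnfrsf9) and 4 lower. Among the lower ones was Il18rap, a chain of the interleukin 18 receptor, at 0.230 and 0.147. Il18rap and Cx3cr1 passed the CPM filter only through NK barcodes, so the count of lower genes supports no direction.

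Further genes were higher in both libraries. Tsc22d1, a leucine-zipper gene induced by transforming growth factor beta, had 68 and 90 UMIs in gated barcodes and ratios of 8.67 (6.24 to 12) and 12.7 (9.54 to 16.9). Ramp1, a chain of the receptor for the neuropeptide CGRP, had 91 and 53 UMIs and ratios of 6.8 (5.19 to 8.86) and 12 (8.26 to 17.3). Lgals3, which encodes galectin 3, stood at 838 and 874 CPM against 181 and 123 CPM (ratios 4.62 and 7.13), whereas Lgals1, which encodes galectin 1, stood at 687 and 648 CPM against 3427 and 3126 CPM (0.200 and 0.207). The calcium-binding protein gene S100a4 had ratios of 6.70 and 5.08, the protease inhibitor gene Spint2 of 5.28 and 6.69, and the zinc-finger gene Hivep3 of 4.64 and 8.96. Ntan1, Litaf and Emid1 complete the 15 higher genes whose intervals lay farthest from 1, with ratios between 3.56 and 5.02. Tsc22d1, Ramp1, Spint2 and Hivep3 stood at 14.9 to 36.2 CPM in NK barcodes. Genes such as these passed the CPM filter only through their level in gated barcodes, so their higher level is a description with no support for a direction.

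Genes of recirculation were mostly lower. Klf2, the transcription factor that keeps egress receptors on in lymphocytes, had 13 UMIs in the gated barcodes of each library against 5277 and 5328 in NK barcodes, which is 32.1 and 43.9 CPM against 1112 and 1089 CPM (ratios 0.0289 and 0.0403). Without the doublets called by Scrublet these ratios were 0.00945 and 0.0105. S1pr5, the sphingosine receptor by which NK cells leave tissue, had 3 and 10 UMIs against 1753 and 2105 (ratios 0.0201 and 0.0785). Itga4, the alpha 4 integrin chain, had 18 and 1 UMIs against 1975 and 2130, and Ly6c2 had 27 and 1 against 5180 and 5063. Of the 13 egress and recirculation genes listed, 10 were measured and 9 of them were at least 2-fold lower in both libraries, with median log2 ratios of −3.63 and −4.18. Itgal was the exception, at 0.610 and 0.565. Genes such as Klf3, Cx3cr1 and S1pr5 passed the CPM filter only through their level in NK barcodes and so had to be lower, which makes the count and median a description with no support for a direction.

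Markers of mature NK cells were lower as well. Cma1, a chymase gene best known from mast cells, had 1 and 4 UMIs in gated barcodes against 2192 and 2570. Klrg1, an inhibitory receptor of terminally mature NK cells, had 15 and 10 UMIs against 1904 and 1728 (ratios 0.0924 and 0.0956), and Cx3cr1, the fractalkine receptor gene, 1 and 2 against 560 and 493. Serpinb9b had 0 UMIs in all 119 gated barcodes against 639 and 655, which makes it at least 18.2-fold and 13.2-fold lower with a floor of 3 UMIs per library. Rasgrp2 had 1 and 0 UMIs against 672 and 843. Transcription factors of mature NK cells were lower too: Tbx21, which encodes T-bet, had ratios of 0.320 (0.224 to 0.443) and 0.242 (0.158 to 0.356), Zeb2 of 0.143 and 0.0687, and Irf8 of 0.202 and 0.0984. Of 20 measured genes in the list of NK and terminal NK genes, 15 were lower and 0 higher, with median log2 ratios of −2.32 and −3.37. Serpinb9b, Cma1, Cx3cr1 and Kcnj8 are among those that passed the CPM filter only through NK barcodes and so had to be lower, so that this count and median support no direction either. Of 15 measured transcription factors in their own list, 4 were lower and 0 higher, against 4.36% and 1.73% of all tested genes. Zeb2 and Klf2, which are among the lower ones, passed the CPM filter only through NK barcodes, so this count supports no direction. The members of both lists that were not lower include Eomes and the signalling adaptor Tyrobp (1.08 and 0.944).

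Cytotoxic genes did not differ alike. Gzma, which encodes granzyme A, stood at 5642 and 2356 CPM in gated barcodes against 19872 and 19401 CPM in NK barcodes (ratios 0.284 and 0.121, and 0.252 and 0.0541 without Scrublet doublets). Prf1, the perforin gene, stood at 361 and 152 CPM against 1303 and 1221 CPM (0.277 and 0.124). Gzmb, which encodes granzyme B, stood at 4409 and 1651 CPM against 2945 and 1533 CPM, and its ratios were 1.5 (1.42 to 1.57) and 1.08 (0.981 to 1.18), the latter 0.856 without Scrublet doublets. In the summed UMIs, Gzma was thus several-fold lower and Gzmb was not. Per barcode, the Gzmb median in the 3XTg-AD library was 3.35 UMIs per 10000 in gated against 9.69 in NK barcodes. In the wildtype library these medians were 13.96 and 9.99. Gzmb UMIs were in 29 of 49 3XTg-AD gated barcodes, and 1 barcode held 21.9% of them. The summed Gzmb ratio in 3XTg-AD therefore does not describe the typical gated barcode. Gzma had UMIs in 70.0% and 53.1% of gated barcodes, and Prf1 in 64.3% and 44.9%, against 50% and 43.3% for Gzma and 37.5% and 43.3% for Prf1 in the barcodes with C1q UMIs. In the 3XTg-AD library the intervals of these shares overlap (Gzma 38.3% to 67.5% against 25.5% to 62.6%), so the share of gated barcodes with a Gzma or Prf1 UMI is not read as expression above free RNA. Serpinb9, the granzyme B inhibitor gene, had ratios of 0.188 and 0.156. Of the 19 listed cytotoxic genes, 13 were measured, with 4 lower (Gzma, Prf1, Serpinb9, Serpinb6b) and 0 higher. Over all tested genes these shares were 4.36% and 1.73%. The other granzyme genes of the chromosome 14 cluster, Gzmd, Gzme, Gzmf and Gzmg, had 0 UMIs in gated and NK barcodes alike.

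The Ly49 receptors, which read classical class I molecules and mark NK cells, were present. Klra4 had 139 and 81 UMIs in gated barcodes, Klra7 187 and 84, Klra8 93 and 114, Klra1 64 and 17, and Klra3 34 and 48. Their ratios over NK barcodes ran from 0.468 (Klra4, 3XTg-AD) to 1.35 (Klra7, wildtype), and 0 of the 6 measured Ly49 genes of 12 listed were past 2-fold in both libraries. Their median log2 ratios were −0.55 and −0.67, below the −0.16 and −0.21 of all tested genes. The Klra genes are close paralogs, so reads may have been divided between them in the authors' counting.

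The remaining lists held few genes past 2-fold in both libraries. Lower genes such as Phf11b of the interferon list and Zfp36 of the immediate early list passed the CPM filter only through NK barcodes. These counts therefore support no direction. In the list of ILC1 genes outside the gate, 7 of 30 genes were measured, and Xcl1, Ltb, Cd7, Cd160 and Ctla2a were the 5 higher ones (median log2 ratios 1.18 and 2.11). A gene high in gated barcodes alone can pass the CPM filter through them, so that count is no measure of the whole list. Of the tissue residency genes, 6 of 20 were measured, with 1 higher (Xcl1) and 1 lower (Itgb7). Of the genes of the transforming growth factor beta pathway, 6 of 23 were measured, with 2 higher (Ctla2a and Litaf), 1 lower (Cd9), and the receptor gene Tgfbr2 at 1.65 (1.19 to 2.24) and 1.40 (0.902 to 2.10). Among 21 of 28 measured adhesion and cytoskeleton genes, 3 were higher (S100a4, S100a6, Lgals3) and 6 lower, including the integrin gene Itgb2 at 0.292 and 0.246 and Emp3 at 0.199 and 0.113. The type I interferon list had 12 of 47 genes measured, 2 higher (Ly6e at 2.28 and 3.29, Lgals3bp at 2.50 and 2.64) and 1 lower. Heat shock and immediate early genes had 24 of 47 measured, 0 higher and 3 lower (Junb, Ier2, Zfp36). The cell cycle list had 8 of 26 measured, 0 higher and 1 lower, H2afz at 0.322 and 0.293.

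Around the gate's edge the genes did not change alike. The 16 barcodes of each library just inside it, with exactly 3 gate UMIs, had 955 and 1097 CPM of Xcl1, against 843 and 818 CPM in the 28 and 21 barcodes just outside it with 2 gate UMIs and the other filters met. Gzma stood at 2430 and 1287 CPM just inside and 8613 and 6293 CPM just outside. Klrg1 had UMIs in 6.25% of barcodes just inside in both libraries and in 14.3% and 28.6% just outside. Eomes went in opposite directions, with 328 and 213 CPM just inside and 192 and 383 CPM just outside.

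The 38 barcodes that passed the gate and held Tmem176 UMIs differed from the gated barcodes in several NK features. Tmem176a and Tmem176b encode related membrane proteins common in ILC3s and other ILCs. Of 2667 genes tested, 29 were at least 2-fold higher in the gated barcodes in both libraries (1.09%) and 43 at least 2-fold lower (1.61%). The Ly49 genes stood out: Klra4 had 220 UMIs in the 119 gated barcodes against 1 in the 38 with Tmem176 UMIs, a ratio of 60.5 with an interval of 10.7 to 2399. Klra7 had 271 UMIs against 3, Klra8 207 against 3, and Klra1 81 against 1. Eomes stood at 232 and 250 CPM in gated barcodes against 28.1 and 35.0 CPM, a pooled ratio of 7.69 (3.46 to 21.3).

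Of the cytotoxic genes, Gzma had a pooled ratio of 4.36 (3.76 to 5.08) over the Tmem176-positive barcodes, and Prf1 of 3.09 (1.88 to 5.41). The Gzma ratio was 3.31 in the wildtype and 33.7 in the 3XTg-AD library (698 against 6 UMIs). In the latter, 1 gated barcode held 33.7% of the Gzma UMIs. Gzmb stood at 4409 and 1651 CPM against 2855 and 46.6 CPM. Il7r ran the other way, with 6 UMIs in gated barcodes against 58 in the Tmem176-positive ones, a ratio of 0.0284 (0.0100 to 0.0657), and so did Tcrg-C4, a T cell receptor gamma constant gene that ILCs can transcribe, with 5 against 47. The interferon-induced genes Isg15 and Ifit3 had 20 against 62 and 0 against 25 UMIs. Xcl1 (0.901, interval 0.784 to 1.04), Thy1 (0.958, 0.807 to 1.14) and Inpp4b (1.04, 0.801 to 1.36) had pooled intervals that include 1. The pooled Xcl1 value joins opposite directions, 0.747 in the wildtype and 1.23 in the 3XTg-AD library. Ltb had a ratio of 0.512 (0.432 to 0.608). Depth was 5355 and 5773 UMIs in gated barcodes against 5090.5 and 4238.5 in the Tmem176-positive ones, so a Tmem176 transcript could be missed in a gated barcode at these depths. Scrublet called 4 gated barcodes of each library as doublets and 0 Tmem176-positive ones, and what this contributes was not tested.

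**Figure D3:**
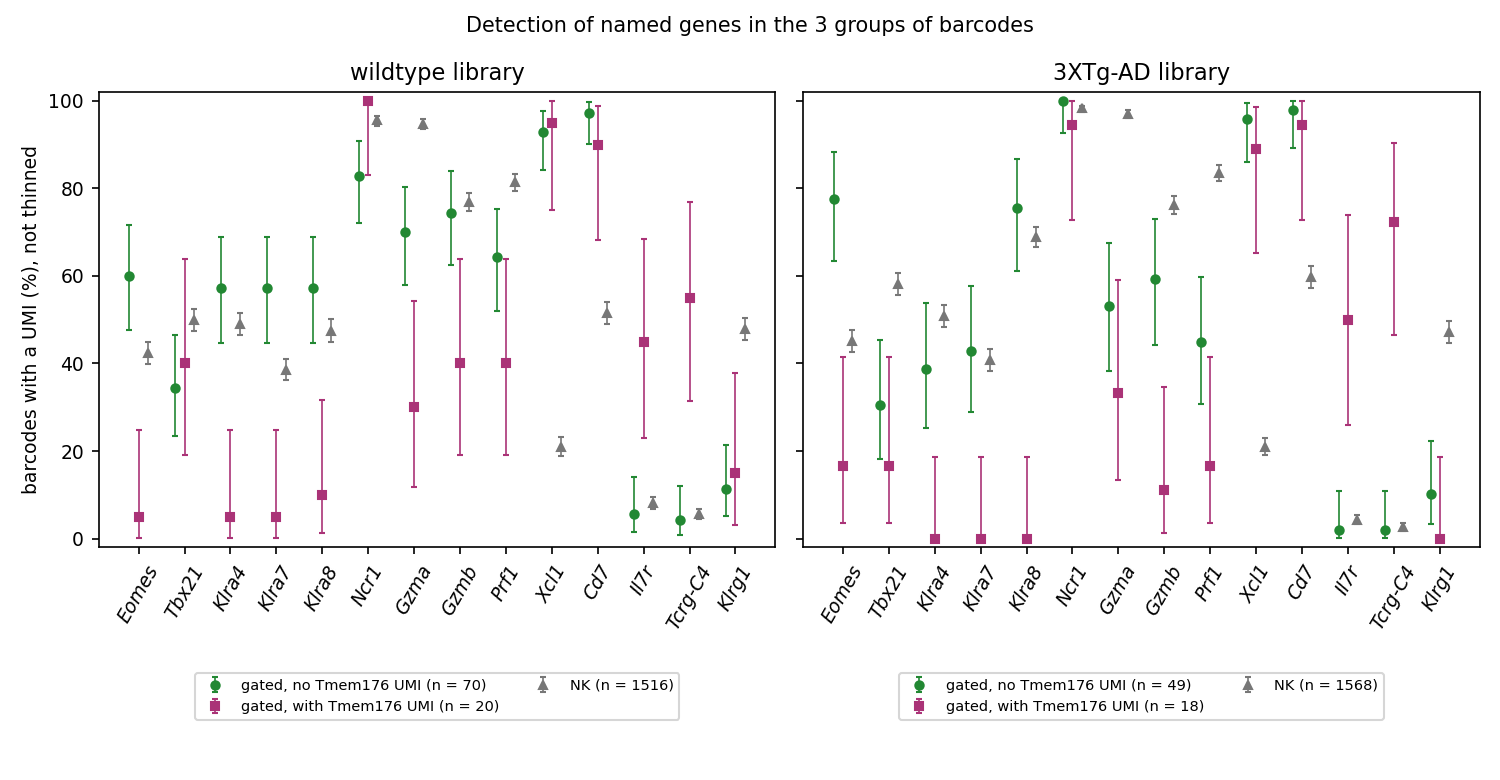
Percent of barcodes with at least 1 UMI of each gene, not thinned, in gated barcodes without Tmem176 UMIs (green), gated barcodes with them (purple) and NK barcodes (grey) of the wildtype (left) and 3XTg-AD (right) libraries, with exact 95% binomial intervals. Eomes, Klra4, Klra7 and Klra8 are common in the green and grey groups and rare in the purple one, Il7r and Tcrg-C4 the reverse, and Xcl1 and Cd7 are high in the green and purple groups.

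Among the gated barcodes themselves, those with Gzmc had more Gzmb. Gzmb stood at 6446 CPM in the 38 wildtype barcodes with a Gzmc UMI against 1091 CPM in the 32 without, a ratio of 5.91 (5.04 to 6.97). In the 3XTg-AD library the 17 and 32 barcodes had 3406 and 568 CPM of Gzmb, a ratio of 6.00 (4.82 to 7.52). Gzma differed less, by 2.32 (2.10 to 2.57) and 2.11 (1.81 to 2.46), and Prf1 by 2.10 (1.42 to 3.20) and 1.85 (0.988 to 3.50). In the 3XTg-AD library 1 barcode held 235 of the 395 Gzma UMIs of the barcodes with Gzmc. The summed Gzma ratio of that library therefore rests largely on 1 barcode, and its interval is too narrow. Barcodes with Gzmc were deeper in the wildtype library, with medians of 6177.5 against 4347.5 UMIs, and in the 3XTg-AD library, with 6262 against 5555.

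Other genes showed no single pattern with Gzmc. In the wildtype library Hist1h2ap had a ratio of 11.2 (4.62 to 35.2), with 87.5% of its UMIs in 1 barcode, Stmn1 of 3.14 (1.52 to 7.29), with 60% in 1 barcode, and Ramp1 of 2.18 (1.31 to 3.78). In the 3XTg-AD library these ratios were 0.997, 1.62 and 0.982, with intervals that include 1. Xcl1 had ratios of 0.975 (0.814 to 1.17) and 1.59 (1.29 to 1.97), Ltb of 1.05 and 1.16, and Ncr1 of 1.02 and 0.947. S100a4 was higher with Gzmc in both libraries, at 1.76 (1.32 to 2.39) and 1.83 (1.21 to 2.77), and Eomes was at 0.641 (0.419 to 0.982) and 1.04 (0.631 to 1.70). Itga1 had ratios of 0.762 and 0.912 with intervals that include 1. Gzmc is a gate gene, so a barcode without it had to carry its 3 gate UMIs on the other 4.

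**Figure D4:**
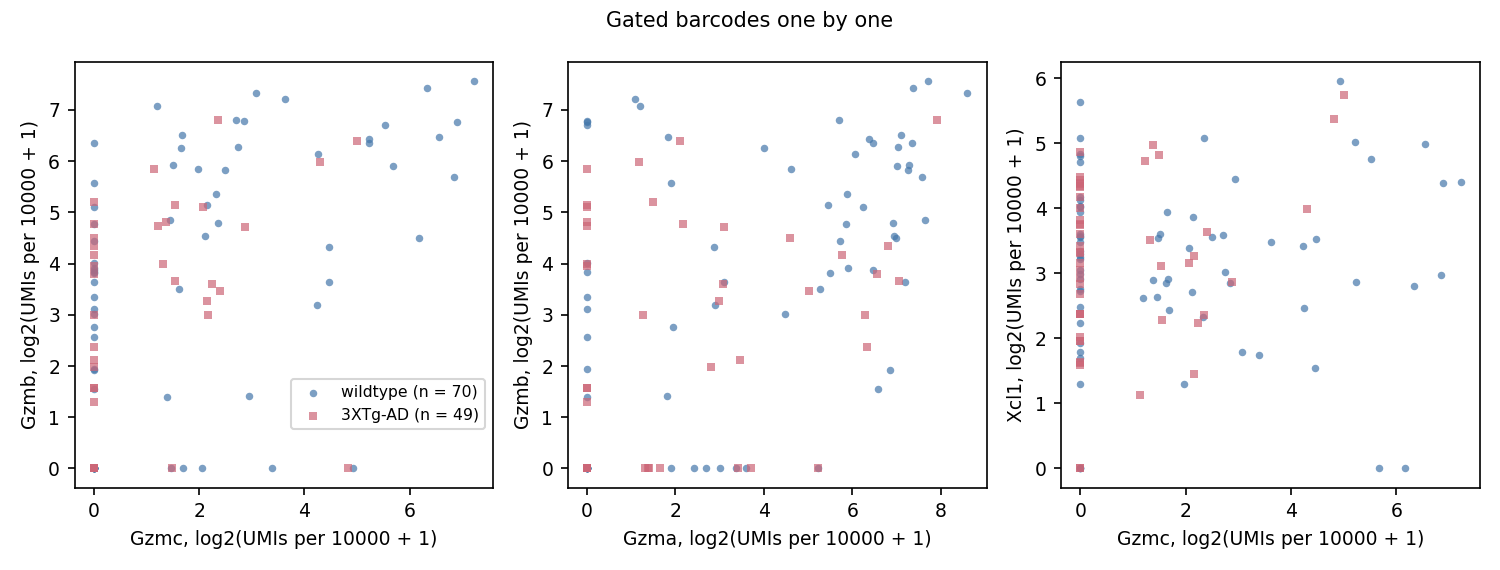
Each point is 1 gated barcode of the wildtype (circles, n = 70) or 3XTg-AD (squares, n = 49) library, on axes of log2(UMIs per 10000 + 1). Barcodes with much Gzmc mostly also have much Gzmb (left), Gzma and Gzmb are both spread from 0 to high values (middle), and Xcl1 is found in nearly all barcodes at any level of Gzmc (right).

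Upstream sequence of 3 of these genes is shown because Gzmc and its neighbour Gzmb varied together and Xcl1 marked nearly every gated barcode. Gzmc lies at chr14:56231441-56234656, Gzmb at chr14:56258838-56262260 and Xcl1 at chr1:164931644-164935527, all protein-coding and on the minus strand of GRCm38 in GENCODE M21. The 250 bases before the RefSeq transcription start are given 5′ to 3′ on the gene's strand in the RefSeq promoter table for GRCm38.p6, at chr14:56234658-56234907 for Gzmc, chr14:56262335-56262584 for Gzmb and chr1:164935523-164935772 for Xcl1. Capitals mark matches on either strand to AACCACA, a Runx-type motif, and to TCACACC, the core that T-box factors such as Eomes and T-bet bind. The motifs do not overlap each other.
Gzmc: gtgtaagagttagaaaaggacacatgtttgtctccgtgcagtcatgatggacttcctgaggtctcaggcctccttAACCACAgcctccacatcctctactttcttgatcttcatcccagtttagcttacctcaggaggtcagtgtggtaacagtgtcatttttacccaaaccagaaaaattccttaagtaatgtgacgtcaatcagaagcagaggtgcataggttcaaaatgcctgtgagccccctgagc
Gzmb: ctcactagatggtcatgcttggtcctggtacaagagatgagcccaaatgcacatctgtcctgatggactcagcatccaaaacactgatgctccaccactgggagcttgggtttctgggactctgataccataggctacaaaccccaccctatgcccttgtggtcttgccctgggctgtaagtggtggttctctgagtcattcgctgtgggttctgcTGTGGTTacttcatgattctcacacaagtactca
Xcl1: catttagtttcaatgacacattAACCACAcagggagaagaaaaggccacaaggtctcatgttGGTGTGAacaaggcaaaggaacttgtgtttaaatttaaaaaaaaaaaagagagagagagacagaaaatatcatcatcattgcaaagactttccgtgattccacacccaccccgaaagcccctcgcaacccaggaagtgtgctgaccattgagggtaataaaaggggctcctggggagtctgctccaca
Each window holds 1 match to AACCACA, on the opposite strand for Gzmb, and the motif was found in 4.40% of 32851 RefSeq promoter windows of that length. Xcl1 alone of the 3 also holds a match to TCACACC, on the opposite strand, which 3.33% of the windows hold. The matches describe letters in these windows and say nothing about binding.

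Between the libraries, 32 of 2604 genes tested in the gated barcodes (mean CPM of both libraries at least 50) were at least 2-fold higher in 3XTg-AD, which is 1.23% of them, and 44 were at least 2-fold lower, which is 1.69%. These counts rest on 119 barcodes and moved with the filter: with a mean CPM of at least 100 they were 5 and 15, and at 25 they were 164 and 197.

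Of 13 measured cytotoxic genes, Gzmc left out, Gzma, Gzmb and Prf1 were past 2-fold and lower in gated barcodes of 3XTg-AD, and 0 were higher, with a list median log2 ratio of −0.14. Gzma stood at 2356 against 5642 CPM, a 3XTg-AD over wildtype ratio of 0.418 (0.383 to 0.455), while in NK barcodes the ratio was 0.976. Its median per barcode was 1.40 UMIs per 10000 against 10.2, and 1 barcode held 33.7% of the 3XTg-AD UMIs. Without the doublets called by Scrublet the ratio was 0.209, and without the 5 deepest barcodes of each library 0.184. Prf1 had a ratio of 0.421 (0.294 to 0.592) against 0.937 in NK barcodes. Gzmb had a ratio of 0.374 (0.338 to 0.414), and here NK barcodes were also lower in 3XTg-AD, at 0.521. The gate gene Gzmc, given as a description, had 85 against 632 UMIs, and without Gzmc in the gate the ratios of Gzma and Gzmb were 0.381 and 0.347. Ctsw (1.05), Lamp1 (1.32) and Serpinb6b (1.43) are list members that were not lower.

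Several receptor genes differed too. Klrb1a, a C-type lectin-like receptor gene of the Nkrp1 family, had 82 UMIs in 44 wildtype barcodes and 15 in 8 3XTg-AD ones, a ratio of 0.250 (0.134 to 0.437) against 0.973 in NK barcodes. Thy1 was higher in 3XTg-AD, at 1168 against 618 CPM (1.89, 1.60 to 2.23), with UMIs in 47 of 49 barcodes against 44 of 70. Klri2, a lectin-like receptor gene, had a ratio of 2.19 (1.60 to 3.03) in gated barcodes and 1.83 in NK barcodes. Klra1 had 0.363 in gated and 0.366 in NK barcodes. The class I gene H2-Q7 had a ratio of 0.313 (0.200 to 0.476) against 0.716. Hivep3 had 2.47 (1.75 to 3.53) against 1.28. Ncr1 had a ratio of 1.76 (1.5 to 2.07) in gated barcodes and 1.34 in NK barcodes, and the wildtype library held the 12 gated barcodes without a Ncr1 UMI.

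Some differences were shared with NK barcodes or rested on few barcodes. Wls, a carrier of Wnt ligands, had 14 against 89 UMIs (0.215, 0.113 to 0.380) and 0.148 in NK barcodes, and the unnamed gene Gm42031 had 6 against 76 UMIs (0.108) and 0.245 in NK barcodes. Ly6a, which encodes Sca-1, had 0 UMIs in 3XTg-AD gated barcodes and 0 in 3XTg-AD NK barcodes, so it was at least 10.0-fold lower with a floor of 3 UMIs, and 56.1% of its 41 wildtype UMIs sat in 1 of 4 barcodes. The difference in Ly6a thus runs through the whole library. Stmn1, a tubulin-binding gene of dividing cells, had 4 against 55 UMIs (0.0993), with 60% of the wildtype UMIs in 1 barcode, and its ratio was 1.09 without the 5 deepest barcodes of each library. Hist1h2ap had 21 against 96 UMIs, with 87.5% of the wildtype UMIs in 1 barcode, and its ratio was 1.81 on the same removal. The cell cycle list as a whole had 52.4% of its wildtype UMIs in 5 of the 70 barcodes, with up to 320 in 1, against a median of 7 per barcode.

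Many features of the gated barcodes stood at about the same level in both libraries. Xcl1 had a ratio of 0.947 (0.825 to 1.09), Eomes of 1.08 (0.782 to 1.47), Tigit of 1.0 (0.756 to 1.32), Ccr2 of 1.01 (0.754 to 1.35), Lgals3 of 1.04 (0.884 to 1.23) and Spint2 of 0.984 (0.667 to 1.44), all with intervals that include 1. The median log2 ratio of all tested genes was 0.02 in gated barcodes and 0.03 in NK barcodes. The list of ILC1 genes outside the gate had a median of 0.15 over 8 measured genes, with 1 higher (Ckb, 26 against 8 UMIs) and 0 lower. The list of egress genes had 2 measured and 0 past 2-fold.

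**Figure D5:**
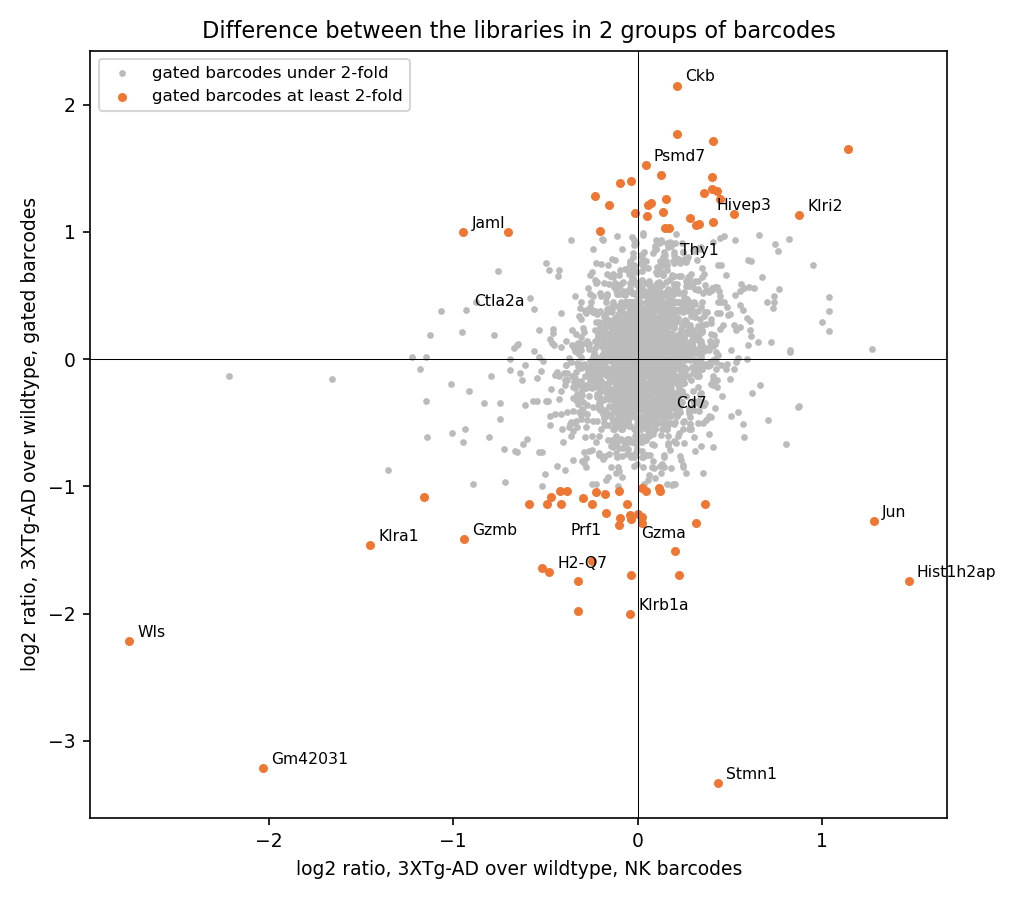
Each point is 1 of 2604 genes, with the log2 ratio of 3XTg-AD over wildtype CPM in NK barcodes on the x axis and in gated barcodes on the y axis; 1 gene with 0 UMIs in a group, Ly6a, is not drawn. Orange points are at least 2-fold in gated barcodes; Wls, Gm42031, Klra1 and Gzmb are lower in both groups, Klrb1a, Gzma and Prf1 are lower in gated barcodes and near 0 in NK barcodes, and Stmn1, Hist1h2ap and Jun differ in direction.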

How the data were processed

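Single-cell data of 2 libraries were used as deposited. The authors' UMI counts per gene and barcode (31053 genes) came from Cell Ranger 3.1.0 with STAR on mm10, per the submitters' processing notes. Software 3.0.2 is given per the file headers. Sequencing was paired, 75 bases a read, per the labels' protocols. The deposited counts are already restricted to called barcodes and totalled 5559995 and 5468455 UMIs in the wildtype and 3XTg-AD libraries, and 1 barcode sequence occurred in both.

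From these counts, barcodes with under 300 genes (45 and 10) or over 10% mitochondrial UMIs (2 and 0) were left out, and the gate was applied. Doublets were called with Scrublet in scanpy 1.11.5 but kept. UMIs were summed over the barcodes of a group and divided by the group's total (CPM). Ratios carry exact conditional binomial 95% intervals and shares Clopper-Pearson ones (scipy 1.17.1). A gene was called past 2-fold, with no test, since each group has 1 library. Code was tested on simulated data. Genes other than rule genes needed a mean CPM of 50. Named genes were a fixed set, those whose intervals lay farthest from 1 in each comparison, and up to 4 a list by size of ratio. Genes named only to complete a count were chosen after their values were seen. The members and the 15 gene lists were chosen with earlier results of these data known. Gene positions are from GENCODE M21, in which 144 of 144 named genes matched by identifier. Alternatives were other gates, filters, scalings, folds and thinning, and, chosen after seeing the data, deeper NK barcodes and removal of the 5 deepest or 5 most cycling gated barcodes of each library. Values of some list genes are not reported here.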

Additional observations from a re-analysis of the deposited data

Results flagged for a closer look

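Among the genes taken by the naming rule and measured between libraries, 8 had a 3XTg-AD over wildtype ratio whose counting interval excluded 1 in gated and in NK barcodes, in opposite directions. With 1 library per genotype the difference was not tested. Fcer1g, a signalling adaptor gene outside that rule and chosen after its values were seen, had 0.898 and 1.12. Cd7, a receptor of T and NK cells, had a ratio of 0.750 in gated barcodes and 1.12 in NK barcodes. Jaml, a junctional adhesion receptor, had 2.0 and 0.520, and Ctla2a, a cysteine protease inhibitor gene, 1.31 and 0.525. The immediate early genes Jun and Ier2 had 0.413 and 0.558 in gated barcodes and 2.43 and 1.09 in NK barcodes. Stmn1 had 0.0993 against 1.35, Hist1h2ap 0.299 against 2.77 and the tubulin gene Tuba1b 0.656 against 1.49. These last 3 are in the cell cycle list, and their gated ratios were 1.09, 1.81 and 1.08 without the 5 deepest barcodes of each library.

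Barcodes that passed the 5-gene gate but had Cd3 or C1q UMIs were outside every comparison. They numbered 17 in the wildtype library and 22 in the 3XTg-AD library, of which 13 and 19 had Cd3 UMIs and 4 and 4 had C1q UMIs.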

How the results depend on the processing

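No paired analysis was possible because each genotype has 1 library. With a gate of 2, 4 or 5 UMIs the gated share was 5.90%, 3.25% and 2.59% in the wildtype library and 4.15%, 1.96% and 1.48% in the 3XTg-AD library, and after thinning 1.77% and 0.879%. Thinning left 27 and 14 gated barcodes, of which 81.5% and 57.1% had a Gzmc UMI, and no Tmem176-positive ones in 3XTg-AD, so that comparison could not be thinned.

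Against NK barcodes the 48 higher genes became 124 on thinning (27 shared), 74 with median-of-ratios scaling (48 shared), 100 and 29 at a mean CPM of 25 and 100, and 148 at 1.5-fold. The 121 lower genes became 203, 65 and 338 under the last 3 settings. Between libraries the 32 higher and 44 lower genes became 57 and 70 with a gate of 4, 92 and 93 with a gate of 5, 639 and 622 on thinning, 164 and 197 at a mean CPM of 25, 5 and 15 at 100, and 197 and 183 at 1.5-fold. The lower genes numbered 83 with every barcode weighted the same, and the higher ones 52 without the 5 most cycling barcodes of each library. Against Tmem176-positive barcodes the 29 higher and 43 lower genes became 86 and 114 at a mean CPM of 25, 11 and 13 at 100, and 90 and 135 at 1.5-fold, and 71 were lower with equal weights.

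Among ratios of named genes to NK barcodes, 1906 of 2220 values over all settings stayed within counting error, 303 moved and 11 changed direction. Between libraries these were 651, 61 and 7 of 719. On thinning, Tigit (3XTg-AD) was at 0.985, Klra1 and Klra4 (wildtype) at 1.08 and 1.11, Klra3 (3XTg-AD) at 2.11, and Tuba1b at 1.74 and 1.22 of the NK level, and Itgb1 had a library ratio of 0.786. Hist1h2ap in wildtype gated barcodes was at 0.141 of the NK level with Gzmc out of the gate, 0.268 on thinning, 0.579 against NK barcodes of at least 4000 UMIs, 0.195 without the 5 deepest and 0.175 without the 5 most cycling barcodes. Its library ratio was 2.56 with Gzmc out of the gate, 3.86 on thinning, 1.81 without the deepest and 2.21 without the most cycling barcodes, and that of Stmn1 and Tuba1b was 1.09 and 1.08 without the deepest. The cause of these changes was not tested. No list median changed direction in 287 values against NK barcodes and 240 between libraries. A group of 49 to 70 barcodes limits what low genes can show.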
